A study of Mus musculus with 12 samples.

Results

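Calorie restriction was compared with ad libitum feeding in mouse liver over 2 collection days in 1 model, with the day of collection held constant in the model, so that differences too small for either day alone could be measured against the spread of 12 libraries. All 12 RNA-seq libraries of the series entered, 6 of calorie-restricted (CR) and 6 of control (Con) liver, with 3 of each at day 25 and 3 of each at day 30. All were livers of male C57Bl/6J mice that began at 6 weeks of age, lived singly, and drank heavy water during the last days before collection, a label shared by both diets. Con mice ate the NIH41 diet freely. CR mice received 30% less of a fortified NIH41 diet, given once daily at midday, so that restriction, meal time and the composition of the diet cannot be told apart in these groups. The time of day of collection was not given in the sources used here.

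Expression was deposited as FPKM, a read count on exons that has been divided by exon length and by library size. Of 24537 genes in the table, 10593 reached an FPKM of 1 in at least 3 libraries and were tested on log2(FPKM + 1). Low values in every library came within 0.1 read of whole multiples of 1 read, which gave depths of 15748703 to 23345573 reads. The libraries are named Con7 to Con9 and CR7 to CR9 at day 25, which are replicates 1 to 3, and Con10 to Con12 and CR10 to CR12 at day 30, as the table names them, and values are listed in that order. A value without a library is from the fit that leaves it out. The labelled tissue showed in its defining transcripts. Alb, the gene of serum albumin, averaged 31370 ± 3815 FPKM in Con and 42410 ± 5640 FPKM in CR. All 10 hepatocyte markers were tested, whereas none of 16 lymphocyte markers and none of 10 neutrophil markers in the table reached the level for testing. Libraries of one group correlated with each other at a mean Pearson r of 0.985 to 0.988 across genes, and no library stood apart.

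Calorie restriction lowers the supply of glucose, amino acids and fat that reaches the liver over a day. The paper describes restricted mice as eating their whole ration within a few hours. The liver is known to answer with hormone-driven programmes, in which glucocorticoid and glucagon raise genes of gluconeogenesis and amino acid breakdown, while lower insulin releases FOXO transcription factors. Beneath those programmes run the large assemblies that every cell uses. The ribosome makes protein, the proteasome degrades it, and the respiratory chain makes ATP; each is built from many subunits encoded by separate genes.

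In all, 4304 of 10593 genes, or 40.6%, differed between CR and Con at an adjusted p below 0.1. Of these, 1536 were higher in CR, 14.5% of genes tested, and 2768 were lower, 26.1%. Most differences were small. On the log2 scale 3362 of the called genes moved by less than 0.5, 766 by 0.5 to 1 and 176 by 1 or more, so that 4128, or 95.9% of the calls, lay under a 2-fold change. The interval of 95% around the difference lay wholly inside 2-fold for 3889 genes, which a 2-fold minimum would have left out. The median standard error of a log2 fold change was 0.09, the smallest difference called was 0.12, and the lower and upper quartiles of called differences were 0.24 and 0.47.

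**Figure D1:**
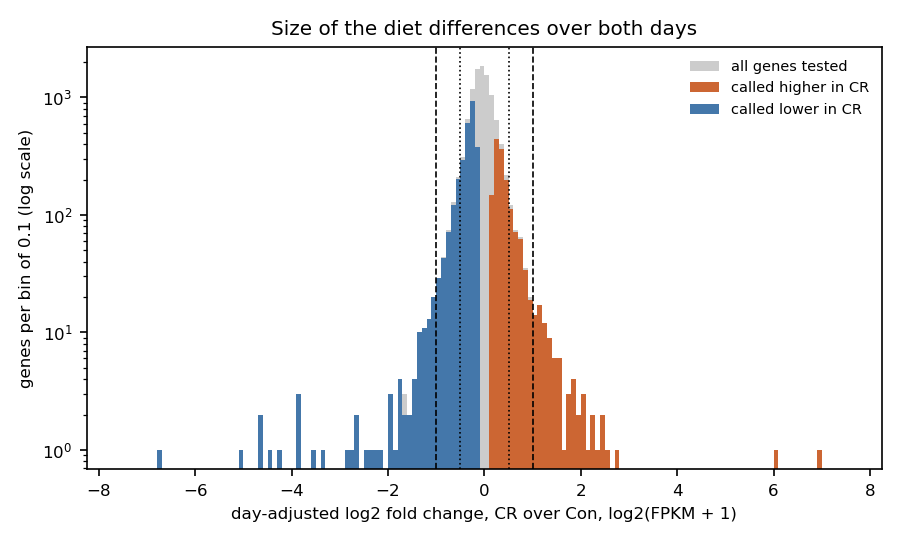
Histogram of the day-adjusted log2 fold change, CR over Con, for 10593 genes in bins of 0.1, with the number of genes on a log axis. Grey bars are all genes tested, and coloured bars the genes called higher or lower; dotted lines mark 0.5 and dashed lines 1, and most of the 4304 coloured genes lie between the dotted lines.

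The balance of rises and falls among the calls depended on how libraries were scaled. The median log2 fold change over all genes was -0.05 in FPKM and 0.01 after median-ratio scaling. Median-ratio scaling called 2229 genes higher and 1995 lower, 52.8% higher against 35.7% in FPKM, and quantile normalisation called 2040 and 1994. The calls shared across scalings numbered 3161 genes, 1355 higher and 1806 lower, called in one direction in FPKM and under median-ratio, TPM and quantile scaling alike, and 2238 of these were small. No gene called in FPKM was called in the opposite direction under any of the 3. The median over all genes was -0.08 under TPM scaling and -0.003 under quantile normalisation. Each scaling moved the median by less than the smallest difference called, 0.12. Opposite calls were therefore unlikely from the outset.

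Both days contributed. Tested within each day in a model of the 4 groups, 1582 genes passed at day 25 and 2619 at day 30. A further 1435 genes passed over both days together and on neither day alone, 1396 of them with small differences. Of the 4304 called genes, 4298 had the same sign on both days, although the call itself favours such genes. Over all 10593 genes, where no call enters, 80.4% had the same sign on both days, and the 2 sets of differences, from separate libraries, had a Pearson r of 0.81 across genes, which are not independent replicates. In 1903 genes, 18% of those tested, all CR libraries lay on one side of all Con libraries of the same day on both days. Among the called genes this held for 1177 small, 559 moderate and 156 large differences. The diet effect itself differed between the days for 1 gene, 0.00944% of those tested. At an unadjusted p under 0.05 by limma there were 366 genes, 3.46% of those tested, a share below that threshold.

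**Figure D2:**
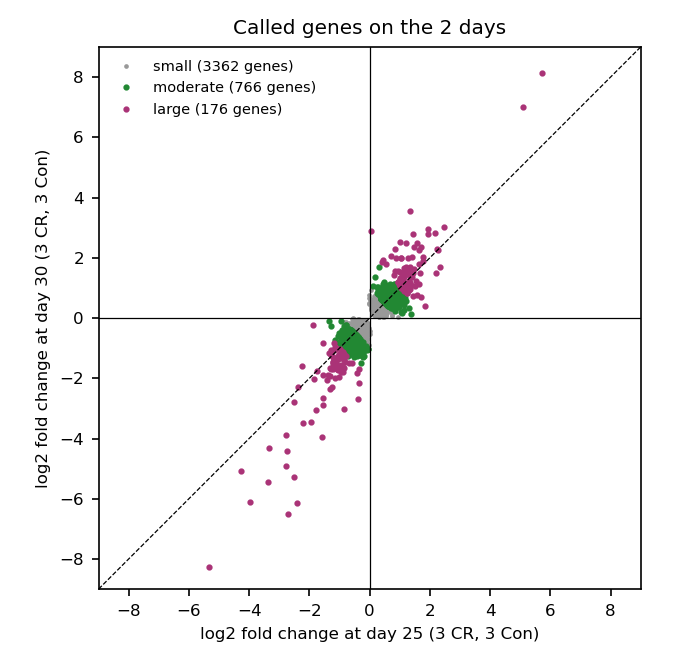
Log2 fold change of CR over Con at day 25 on the x axis and at day 30 on the y axis, each from 3 CR and 3 Con libraries, for the 4304 genes called over both days, coloured by size over both days. Of these points 4298 have the same sign on both axes, along the dashed line of equality.

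The small changes described first showed no overlap between diets on either day, which the rule for naming genes required. Of all 3362 small calls, 1177 met this condition. The rule also applied to the moderate and large differences that follow, so their lack of overlap was set by selection. Cipc, a repressor of the CLOCK and BMAL1 pair, measured 9.15, 9.65 and 8.59 FPKM in Con and 14.3, 13.1 and 13.3 FPKM in CR at day 25, and 9.04, 9.81 and 8.17 FPKM in Con and 12.8, 12.5 and 12.7 FPKM in CR at day 30. Every CR library lay above every Con library (log2 fold change 0.49 ± 0.06, SE, adjusted p = 7.15e-05). Abcg8, which with Abcg5 forms the transporter that moves sterols into bile, measured 36.4, 41.7 and 38.8 FPKM in Con and 52.8, 54.3 and 51.7 FPKM in CR at day 25, and 43.7, 41.6 and 36.4 FPKM in Con and 58.5, 56.03 and 53.5 FPKM in CR at day 30. It rose without overlap (log2 fold change 0.45 ± 0.06, SE, adjusted p = 2.63e-04), as did its partner Abcg5, the member of the cholesterol list with the smallest p (log2 fold change 0.57 ± 0.07, SE, adjusted p = 1.25e-04). The annotated spans of these neighbours overlap by 6710 bases on opposite strands, and whether the counting used strand is not given in the sources used here, so their reads are not fully separate.

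Bnip3, a receptor that directs mitochondria to autophagy, measured 52.1, 44.1 and 49.8 FPKM in Con and 64.8, 58.01 and 65.5 FPKM in CR at day 25, and 42.3, 45.03 and 48.2 FPKM in Con and 59.4, 66.4 and 64.5 FPKM in CR at day 30. The lowest CR library stood above the highest Con library (log2 fold change 0.42 ± 0.07, SE, adjusted p = 6.79e-04), and the 95% interval of 0.27 to 0.57 excluded a 2-fold change. Uox, urate oxidase, averaged 716 ± 73.2 FPKM in Con and 1003 ± 179 FPKM in CR and rose (log2 fold change 0.47 ± 0.07, SE, adjusted p = 4.45e-04), with 18450 bases of its span shared with Dnase2b on the other strand. Ndel1, a regulator of the motor dynein, rose by 0.45 and Baiap2l1, a substrate of the insulin receptor, by 0.50 on the log2 scale.

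The small falls of smallest p were led by Mlec, malectin, a lectin of the endoplasmic reticulum that binds newly made glycoproteins. Mlec measured 15.3, 15.9 and 16.1 FPKM in Con and 11.8, 12.1 and 10.97 FPKM in CR at day 25, and 16.2, 17.2 and 17.3 FPKM in Con and 10.8, 11.6 and 11.7 FPKM in CR at day 30. The 6 CR libraries spanned a narrow range below all 6 Con libraries (log2 fold change -0.47 ± 0.05, SE, adjusted p = 5.65e-05). Psmd1, a subunit of the regulatory particle of the proteasome, measured 43.8, 39.03 and 43.1 FPKM in Con and 33.3, 30.5 and 31.6 FPKM in CR at day 25, and 45.6, 46.2 and 40.7 FPKM in Con and 27.5, 32.9 and 30.99 FPKM in CR at day 30. It fell without overlap (log2 fold change -0.46 ± 0.07, SE, adjusted p = 3.53e-04). Stx4a, the membrane fusion protein syntaxin 4, had a log2 fold change of -0.48, and Ap2a2, a subunit of the clathrin adaptor AP-2, one of -0.44. Pttg1ip had one of -0.45. Hc, the complement component C5, measured 152, 156 and 151 FPKM in Con and 124, 110.2 and 106 FPKM in CR at day 25, and 149, 191 and 165 FPKM in Con and 104, 114 and 124 FPKM in CR at day 30 and fell as well (log2 fold change -0.49 ± 0.08, SE, adjusted p = 5.77e-04).

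**Figure D3:**
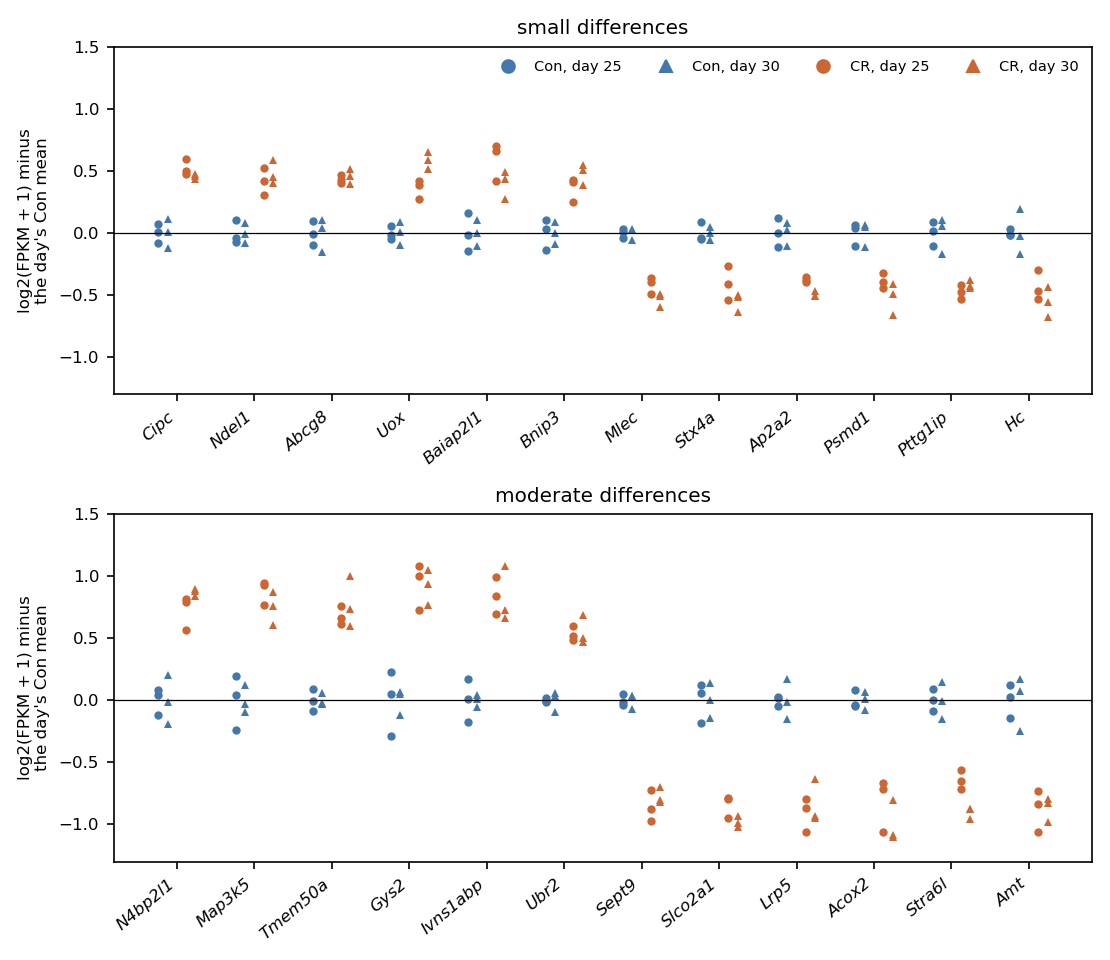
Value of each of 12 libraries for the 12 small (upper) and 12 moderate (lower) differences of smallest p, as log2(FPKM + 1) minus the mean of the 3 Con libraries of the same day; circles are day 25, triangles day 30, blue Con and orange CR. For every gene shown the CR points of a day lie wholly on one side of the Con points of that day, which the rule for naming genes required.

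Among moderate rises, Gys2, liver glycogen synthase, measured 50, 63.5 and 71.95 FPKM in Con and 124, 131 and 102 FPKM in CR at day 25, and 60.4, 68.1 and 68.9 FPKM in Con and 112, 137 and 127 FPKM in CR at day 30. CR libraries were all higher, with no overlap (log2 fold change 0.93 ± 0.10, SE, adjusted p = 3.18e-05). Map3k5, the stress kinase ASK1, measured 7.77, 10.8 and 9.64 FPKM in Con and 18.9, 16.6 and 18.7 FPKM in CR at day 25, and 10.2, 8.62 and 9.05 FPKM in Con and 16.3, 14.6 and 17.8 FPKM in CR at day 30 and rose (log2 fold change 0.81 ± 0.08, SE, adjusted p = 2.73e-05). Ubr2, a ubiquitin ligase of the N-end rule, averaged 11.8 ± 0.47 FPKM in Con and 17.8 ± 1.09 FPKM in CR, a difference of under 50% set against standard deviations near 1 FPKM or less (log2 fold change 0.54 ± 0.06, SE, adjusted p = 3.43e-05). N4bp2l1, Tmem50a and Ivns1abp rose by 0.80, 0.73 and 0.83 on the log2 scale.

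Among moderate falls, Sept9, a septin of the cytoskeleton, measured 18.4, 18.7 and 19.6 FPKM in Con and 9.82, 11.1 and 9.12 FPKM in CR at day 25, and 20.4, 20.3 and 18.9 FPKM in Con and 10.8, 11.9 and 10.9 FPKM in CR at day 30. The highest CR library was far below the lowest Con library (log2 fold change -0.81 ± 0.06, SE, adjusted p = 3.14e-06). Slco2a1, a prostaglandin transporter, averaged 25.97 ± 2.64 FPKM in Con and 13.3 ± 0.69 FPKM in CR (log2 fold change -0.91 ± 0.07, SE, adjusted p = 5.26e-06). Lrp5, a Wnt co-receptor, had a log2 fold change of -0.87. Acox2, the peroxisomal oxidase of branched fatty acids and bile acid precursors, had one of -0.91. Stra6l, a receptor for retinol binding protein, averaged 32.3 ± 2.602 FPKM in Con and 18.5 ± 1.805 FPKM in CR, and Amt, a component of the glycine cleavage system, averaged 25.6 ± 2.88 FPKM in Con and 13.5 ± 1.23 FPKM in CR, both lower in CR without overlap.

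The large differences, for scale, were led by Nr1d1, the clock repressor REV-ERB alpha, at 45.9, 50.9 and 39.8 FPKM in Con and 8.79, 6.96 and 8.23 FPKM in CR at day 25, and 53.7, 40.7 and 57.4 FPKM in Con and 9.91, 8.94 and 9.702 FPKM in CR at day 30. The highest CR library was far under the lowest Con library (log2 fold change -2.33 ± 0.09, SE, adjusted p = 1.85e-08). Crot, a carnitine acyltransferase of peroxisomes, fell (log2 fold change -1.72 ± 0.11, SE, adjusted p = 1.24e-06), as did Lasp1, an actin-binding protein (log2 fold change -1.02 ± 0.08, SE, adjusted p = 3.14e-06). Fmo5, a flavin monooxygenase, rose (log2 fold change 1.58 ± 0.09, SE, adjusted p = 4.05e-07), as did Thrsp, a regulator of fat synthesis (log2 fold change 2.27 ± 0.17, SE, adjusted p = 3.14e-06). The span of Nr1d1 overlaps that of Thra by 1075 bases on the other strand, and Thra was also lower in CR, by a log2 fold change of -1.26.

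Ribosomal proteins showed how a shared small change looks in these data. Of 66 tested genes for proteins of the cytosolic ribosome, 47 rose and 0 fell, 71.2% against 14.5% of all genes, and 43 of the 47 calls were small. The small subunit gave 19 of 26 and the large subunit 28 of 40, and the median log2 fold change was 0.33 against -0.05 for all genes. Rplp1, a stalk protein and the most abundant member, measured 201, 312 and 259.9 FPKM in Con and 296, 364 and 306 FPKM in CR at day 25, and 269.8, 234 and 237 FPKM in Con and 356, 339.7 and 236 FPKM in CR at day 30. Diets overlapped on both days, and the difference passed in the combined fit (log2 fold change 0.32 ± 0.12, SE, adjusted p = 0.0619), but not without CR8, CR10, CR11, Con7, Con11 or Con12, lowest at 0.25 without Con7, nor with the exonic share, given next, as a covariate (0.14). Rpl22l1, a paralog of Rpl22, had the smallest p (log2 fold change 0.82 ± 0.14, SE, adjusted p = 7.05e-04). Only 3 of 66 members were free of overlap on both days, 4.55% against 18% of all genes.

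The list's median per library, relative to the Con mean of its day, is given here beside the share of reads on annotated exons. At day 25 the medians were -0.22, 0.239 and -0.0315 in Con, at shares of 78.1%, 83.6% and 81.2%, and 0.0854, 0.357 and 0.298 in CR, at 80.9%, 84.3% and 81.1%. At day 30 they were 0.103, -0.00684 and -0.0768 in Con, at 80.6%, 78.2% and 79.4%, and 0.587, 0.532 and 0.095 in CR, at 81.8%, 82.3% and 80.5%. The diets overlapped on both days. With the share as a covariate, chosen after the data were seen, 24 ribosomal genes were called higher and 0 lower. Exons of 58 of the 66 genes summed to no more than 1392 bases, and of the 2119 tested genes this short 19.5% were higher, against 10.8% of the 2118 genes of 4428 bases or more. Median-ratio scaling called 54 higher, with a median of 0.40. Leaving out CR10, CR11 or Con12 left 31 calls each. Ribosomal genes also have many processed copies in the genome, and how reads with several matches were treated is not given in the sources used here. The part of multiple matches and of exon length in the result was not tested.

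Of 75 subunits of the respiratory chain and ATP synthase, 53 rose, 70.7% against 14.5% of all genes, and 0 fell. Small steps made up 52 of the calls, the median log2 fold change was 0.29, and 8 genes were free of overlap on both days, 10.7% against 18% of all genes. All 13 tested ATP synthase genes rose, as did 23 of 37 genes of complex I, 3 of 4 of complex II, 8 of 9 of complex III and 6 of 11 of complex IV. Atp5b, the catalytic beta subunit of ATP synthase, measured 532, 648 and 548 FPKM in Con and 636, 734 and 738 FPKM in CR at day 25, and 554, 535 and 553 FPKM in Con and 768, 724 and 661 FPKM in CR at day 30. At day 30 every CR library was above every Con library, and at day 25 the groups overlapped in 1 library of each (log2 fold change 0.34 ± 0.08, SE, adjusted p = 0.00534). Ndufc2 of complex I measured 72.1, 80.7 and 75.6 FPKM in Con and 89.6, 104 and 103 FPKM in CR at day 25, and 82.6, 87.6 and 84.9 FPKM in Con and 121, 121 and 89.7 FPKM in CR at day 30 and was free of overlap on both days (log2 fold change 0.37 ± 0.08, SE, adjusted p = 0.00532). With the share of exonic reads as a covariate 29 of the 75 were called higher and 0 lower, and without CR10 the count was 34. In 61 of the 75 the exons summed to no more than 1392 bases.

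Of 76 tested mitochondrial ribosomal proteins, 4 rose and 4 fell, 10.5% against 40.6% of all genes, with a median of 0.05. The count of rises was not stable: it was 17 without CR12, 7 without Con8, and 2 without CR8, CR10, CR11 or Con12. Without CR11 the falls were 7. Mrps28 rose (log2 fold change 0.48 ± 0.13, SE, adjusted p = 0.0138) and Mrps2 fell (log2 fold change -0.30 ± 0.06, SE, adjusted p = 0.00356), both proteins of the small mitochondrial subunit. Median-ratio scaling called 24 higher and 2 lower. A block for the number in the library names, described last, called 18 higher and 7 lower.

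The citric acid cycle and the entry of pyruvate gave 18 of 31 genes higher, 58.1% against 14.5% of all genes, 0 lower and a median log2 fold change of 0.23. Here 11 genes were free of overlap on both days, 35.5% against 18% of all genes, and the count was 17 higher and 2 lower with the exonic share as a covariate. Got1, the cytosolic aspartate aminotransferase that carries reducing equivalents between compartments, measured 148, 169.5 and 205 FPKM in Con and 358, 321 and 551 FPKM in CR at day 25, and 103, 63.4 and 130.5 FPKM in Con and 421, 238 and 299 FPKM in CR at day 30. It rose in all CR libraries (log2 fold change 1.45 ± 0.20, SE, adjusted p = 2.23e-04) and was the single large difference of the list. Genes of glycolysis, gluconeogenesis and glycogen gave 17 of 42 higher, 40.5%, and 3 lower, 7.14%. Pck1, which commits carbon to gluconeogenesis, averaged 1571 ± 554 FPKM in Con and 2353 ± 296 FPKM in CR (log2 fold change 0.64 ± 0.16, SE, adjusted p = 0.00997). Phkb, a subunit of the kinase that starts glycogen breakdown, fell (log2 fold change -0.43 ± 0.07, SE, adjusted p = 6.34e-04).

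Of 61 enzymes that break down amino acids 18 were higher, 29.5% against 14.5% of all genes, and 11 lower, 18% against 26.1%. Hpd, an enzyme of tyrosine breakdown and the most abundant member, averaged 1598 ± 351 FPKM in Con and 1808 ± 112 FPKM in CR, a difference that did not pass the test (log2 fold change 0.21 ± 0.11, SE, adjusted p = 0.173). The lower members included Amt, named above, and Cbs, which joins homocysteine to serine and also belongs to the methionine list (log2 fold change -0.72 ± 0.08, SE, adjusted p = 4.93e-05). In that list 6 of 27 genes rose, 22.2%, and 2 fell, 7.41%, led by Pemt, which methylates phosphatidylethanolamine (log2 fold change 0.69 ± 0.11, SE, adjusted p = 4.59e-04). The rises there were 3 with the exonic share as a covariate and 11 under median-ratio scaling. Of 10 urea cycle genes 2 rose, 20%, and 0 fell, and the rises were 1 to 3 with a library left out. Ass1 was the first (log2 fold change 0.44 ± 0.15, SE, adjusted p = 0.0358), a call lost with the exonic share as a covariate, at 0.39. Cps1, the most abundant, averaged 913 ± 173 FPKM in Con and 1102 ± 132 FPKM in CR (log2 fold change 0.29 ± 0.13, SE, adjusted p = 0.104).

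In the list of fatty acid oxidation and ketogenesis 13 of 45 genes rose, 28.9% against 14.5% of all genes, and 9 fell, 20% against 26.1%. Quantile normalisation turned this balance, to 9 higher and 11 lower. In the list of fatty acid and triglyceride synthesis 13 of 33 rose, 39.4%, and 9 fell, 27.3%. Acot3, a peroxisomal thioesterase, rose (log2 fold change 2.11 ± 0.35, SE, adjusted p = 7.05e-04), and Insig2, which holds the sterol sensor SCAP in the endoplasmic reticulum, fell (log2 fold change -1.25 ± 0.16, SE, adjusted p = 1.23e-04). Apob, the protein of secreted lipoproteins, averaged 677 ± 50.7 FPKM in Con and 518 ± 93.3 FPKM in CR, lower in CR without overlap on either day (log2 fold change -0.40 ± 0.12, SE, adjusted p = 0.0184). Of 31 cholesterol genes 7 rose and 7 fell, 22.6% each, with 3 falls without CR10, Con7 or Con12 and 4 without CR9, Con8 or Con10, and their median was 0.25 at day 25 and -0.18 at day 30, a difference between days that was not tested for the list.

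Of 47 genes for proteasome subunits and associated factors, among them assembly factors, 20 fell, 42.6% against 26.1% of all genes. In this list 2 rose and 25 did not pass the test, with a median log2 fold change of -0.14. Of 20 genes with Psmc and Psmd symbols 14 were lower and 1 higher. Most encode the regulatory particle, which selects substrates, and Psmd5, Psmd9 and Psmd10 encode chaperones of its assembly. Of 17 genes with Psma and Psmb symbols, those of the core, 4 were lower and 1 higher, a difference that was not tested. Psmd11, of the lid of that particle, measured 36.2, 37.1 and 37.8 FPKM in Con and 25.7, 26.8 and 25.5 FPKM in CR at day 25, and 40.5, 39.4 and 35.9 FPKM in Con and 23.6, 27.1 and 24.8 FPKM in CR at day 30. Neither day showed overlap (log2 fold change -0.55 ± 0.06, SE, adjusted p = 4.23e-05), and the diets differed by about 32% on this scale. Psmd9, an assembly factor, went up (log2 fold change 0.37 ± 0.09, SE, adjusted p = 0.00796). Under median-ratio scaling the counts were 15 lower and 3 higher.

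Other protein machinery had shares of calls near or under those of all genes, 14.5% higher and 26.1% lower. Of 22 genes for cytosolic tRNA synthetases and their partners Aimp1 and Aimp2, 5 fell, 22.7%, and 0 rose. The falls were 3 without CR10, Con10 or Con11. Lars, for leucine, had the smallest p (log2 fold change -0.43 ± 0.07, SE, adjusted p = 7.95e-04). Among 51 translation factors 8 rose, 15.7%, and 4 fell. The rises were 4 without CR10 or Con12, and 5 without CR11 or Con7. Median-ratio scaling gave 14 higher and 2 lower, and the exonic share as a covariate 3 higher and 6 lower, so the balance turned. Eif4g3, a scaffold of cap-dependent initiation, fell (log2 fold change -0.64 ± 0.07, SE, adjusted p = 5.17e-05). Eif4ebp3, which binds and blocks the cap-binding factor, rose (log2 fold change 1.15 ± 0.26, SE, adjusted p = 0.00493). Eef1a1, the elongation factor that brings tRNA to the ribosome, averaged 542 ± 43.3 FPKM in Con and 589.7 ± 9.32 FPKM in CR (log2 fold change 0.12 ± 0.07, SE, adjusted p = 0.169). In the spliceosome 13 of 50 genes fell, 26%, and 4 rose, 8%, with 2 rising without CR8, CR10 or CR11. Median-ratio scaling, which turned the balance of all genes too, gave 9 lower and 10 higher. Srsf5, a splicing regulator, fell from 66.8 ± 4.22 to 46.3 ± 7.32 FPKM (log2 fold change -0.53 ± 0.09, SE, adjusted p = 0.0011).

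In the secretory pathway the shares were near or under those of all genes. Of 39 chaperones and unfolded-protein-response genes 12 fell, 30.8%, and 7 rose, 17.9%, and the rises were 3 without CR7 and 4 without CR8, CR11, Con7, Con9 or Con12. Pdia4, a disulfide isomerase, fell (log2 fold change -0.56 ± 0.08, SE, adjusted p = 2.56e-04). Herpud1, a component of degradation from the endoplasmic reticulum, rose (log2 fold change 0.86 ± 0.11, SE, adjusted p = 9.34e-05). P4hb, the most abundant isomerase, also rose (log2 fold change 0.38 ± 0.08, SE, adjusted p = 0.00516). Genes of translocation and glycosylation gave 6 of 45 higher, 13.3%, and 3 lower, 6.67%, with 0 lower without CR9, CR10, Con8 or Con10 and 1 without CR12 or Con12. Those of coat proteins gave 5 of 40 higher, 12.5%, and 8 lower, 20%, with 5 lower without CR9, CR10 or Con12. Sec61a1, the translocation channel, rose by 0.20, and Sar1b, which starts COPII coats, by 0.27.

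Of 38 autophagy genes 12 fell, 31.6% against 26.1% of all genes, and 4 rose, 10.5% against 14.5%. Under median-ratio scaling 8 fell and 9 rose, while all genes turned likewise to 1995 lower and 2229 higher. Sqstm1, the cargo receptor p62, fell (log2 fold change -0.48 ± 0.09, SE, adjusted p = 0.00134). Of 47 lysosomal genes 10 fell, 21.3%, and 7 rose, 14.9%, with 4 rising without CR11, Con7 or Con11. Here too the balance turned under median-ratio scaling, to 7 lower and 10 higher. Arsa, arylsulfatase A, fell (log2 fold change -1.02 ± 0.17, SE, adjusted p = 7.05e-04), and Mcoln1, a calcium channel of lysosomes, rose (log2 fold change 0.29 ± 0.06, SE, adjusted p = 0.00474). In the proton pump of lysosomes 6 of 16 genes rose, 37.5%, and 0 fell, led by Atp6v1e1 (log2 fold change 0.35 ± 0.07, SE, adjusted p = 0.00176). With the exonic share as a covariate 3 were higher. Of 24 heat shock genes 8 rose, 33.3%, and 2 fell, 8.33%, Dnajb1, a co-chaperone of HSP70, having the smallest p (log2 fold change 0.48 ± 0.09, SE, adjusted p = 0.00134). The counts were 10 higher and 0 lower with the exonic share as a covariate. The cytosolic chaperonin and prefoldin list gave 4 of 14 higher, 28.6%, or 2 without CR9, CR10, CR11, Con7, Con9, Con11 or Con12. It gave 2 lower, 14.3%, or 1 without CR8, CR10, Con8 or Con10 and 0 without CR12 or Con11, with Cct4 at 0.22. Of 16 peroxisome biogenesis genes 2 rose, 12.5%, and 3 fell, 18.8%, Pex11a, which elongates the organelle, at 0.38 and Pex3 at -0.25. With a library left out the rises were 1 to 3 and the falls 2 to 4.

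**Figure D4:**
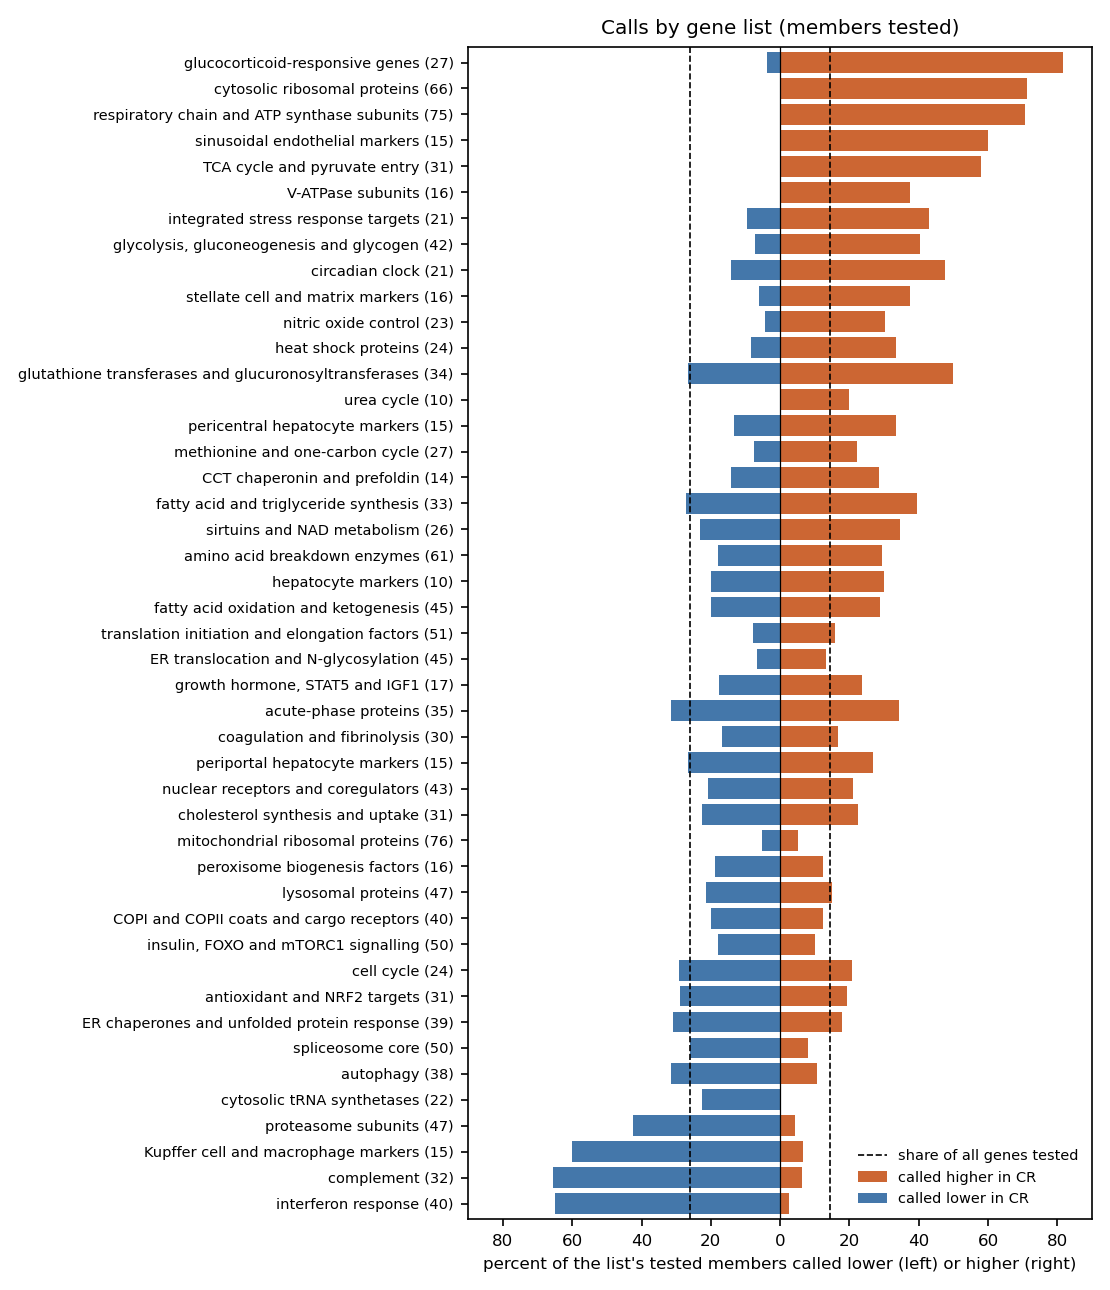
Percent of tested members called lower (left, blue) or higher (right, orange) in CR for each gene list with at least 10 tested members, the number tested in brackets. Dashed lines mark 26.1% lower and 14.5% higher among all 10593 genes; glucocorticoid-responsive genes, ribosomal proteins and respiratory subunits reach farthest right, and complement and interferon genes farthest left.

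Other counts in the lists also moved by over 1.5 times with the setting. With the exonic share as a covariate the rises were 2 for the spliceosome, 2 for the chaperonin, 4 for lysosomal, 3 for antioxidant and 3 for stellate genes. The falls were 8 for mitochondrial ribosomal, 5 for translocation, 7 for peroxisome and 3 for cholesterol genes. Median-ratio scaling gave rises of 13 for translocation, 11 for chaperones of the endoplasmic reticulum, 8 for coats, 28 for amino acid breakdown, 5 for the urea cycle and 11 for nitric oxide control. It gave rises of 8 for coagulation, 8 for the cell cycle, 8 for pericentral and 10 for stellate markers. The falls were 3 for the tRNA synthetase list, 5 for coats, 4 for cholesterol and 3 for NAD genes. Quantile normalisation gave rises of 12 for mitochondrial ribosomal genes, 5 for translation factors, 9 for the spliceosome, 12 for insulin signalling, 8 for the cell cycle and 10 for stellate markers, and falls of 5 for coats and 5 for insulin signalling. TPM scaling gave 3 coat genes higher, and 7 translation factors and 5 translocation genes lower.

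Among the lists tested, the one with the largest share of calls was that of glucocorticoid-responsive genes. Of 27, 22 rose, 81.5% against 14.5% of all genes, and 1 fell, 3.7% against 26.1%. In 15 the diets were free of overlap on both days, 55.6% against 18% of all genes, and the median log2 fold change was 0.75. Lpin1, a phosphatidate phosphatase that also coactivates PPAR alpha, measured 16.2, 48.4 and 55.9 FPKM in Con and 177, 239.9 and 193 FPKM in CR at day 25, and 14.8, 27.01 and 20.4 FPKM in Con and 172, 123 and 232 FPKM in CR at day 30. The lowest CR library was well above the highest Con library (log2 fold change 2.74 ± 0.27, SE, adjusted p = 2.26e-05). Klf9, a Krüppel-like factor, was the member that fell (log2 fold change -0.32 ± 0.09, SE, adjusted p = 0.0133). Of the 23 calls 11 were large and 4 small. Several members also stand in other lists. Lpin1 is in the list of fatty acid and triglyceride synthesis, Pck1 in that of gluconeogenesis and Per1 in that of the clock. Igfbp1 is in the insulin and growth hormone lists. Counts of lists that share genes are not independent.

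In the insulin, FOXO and mTORC1 list 5 of 50 genes rose, 10% against 14.5% of all genes, and 9 fell, 18% against 26.1%. The rises were 3 without Con7 and 8 without Con8. The falls were 4 without Con10 or Con11, and 5 without CR12, Con8 or Con9. Under median-ratio scaling 13 rose and 4 fell. Foxo1, a transcription factor that insulin keeps out of the nucleus, measured 10.5, 12.99 and 13.96 FPKM in Con and 24.96, 17.7 and 23.1 FPKM in CR at day 25, and 9.37, 9.72 and 9.73 FPKM in Con and 16.9, 16 and 20.4 FPKM in CR at day 30. It rose (log2 fold change 0.79 ± 0.09, SE, adjusted p = 7.15e-05), while Rptor, a subunit of mTORC1, fell (log2 fold change -0.28 ± 0.07, SE, adjusted p = 0.00849). Nampt, the rate-limiting enzyme of NAD salvage, measured 16.2, 17.9 and 16.9 FPKM in Con and 34.7, 31.6 and 33.3 FPKM in CR at day 25, and 13.5, 22.4 and 17.4 FPKM in Con and 30.6, 36.95 and 42.4 FPKM in CR at day 30 and rose (log2 fold change 0.97 ± 0.11, SE, adjusted p = 4.93e-05), in a list of 26 NAD and sirtuin genes with 9 higher, 34.6%, and 6 lower, 23.1%, the falls being 3 without CR9, CR10 or Con10. Kynu, of the kynurenine route, fell (log2 fold change -0.58 ± 0.09, SE, adjusted p = 6.56e-04). Of 21 integrated-stress-response genes 9 rose, 42.9%, and 2 fell, 9.52%. Ddit4, an inhibitor of mTORC1 that is also in the glucocorticoid list, had the smallest p (log2 fold change 2.26 ± 0.27, SE, adjusted p = 6.96e-05). Atf5, a transcription factor of that response, went in the other direction (log2 fold change -1.17 ± 0.15, SE, adjusted p = 1.48e-04).

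Nitric oxide control, which the study examined, gave 7 of 23 tested genes higher, 30.4% against 14.5% of all genes, and 1 lower, all 8 small. The count of rises rested on single libraries: it was 2 without CR10, 3 without CR11 or Con11, and 4 without CR9 or Con7. Adh5, which reduces S-nitrosoglutathione, averaged 204 ± 11.5 FPKM in Con and 257 ± 26.6 FPKM in CR (log2 fold change 0.33 ± 0.08, SE, adjusted p = 0.00705). Nostrin, a trafficking partner of endothelial nitric oxide synthase, averaged 9.02 ± 0.52 FPKM in Con and 6.604 ± 0.46 FPKM in CR, lower without overlap (log2 fold change -0.40 ± 0.06, SE, adjusted p = 3.45e-04). With the exonic share as a covariate 2 were higher and 2 lower.

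Of 21 clock genes 10 rose, 47.6% against 14.5% of all genes, and 3 fell, 14.3% against 26.1%, with 4 of the 13 calls small. Dbp, an output gene of the clock, averaged 52.2 ± 14.5 FPKM in Con and 46.5 ± 11.7 FPKM in CR (log2 fold change -0.14 ± 0.21, SE, adjusted p = 0.621), and with the exonic share as a covariate its log2 fold change was -0.43 and passed the test. Of 43 nuclear receptors and coregulators 9 rose and 9 fell, 20.9% each. Among 17 genes of growth hormone signalling 4 rose, 23.5%, and 3 fell, 17.6%, or 1 fell without CR8 or Con7, with Igfbp4, a binding protein of IGF1, at 676 ± 78.7 FPKM in Con and 791 ± 77.5 FPKM in CR (log2 fold change 0.23 ± 0.08, SE, adjusted p = 0.0398) and Stat5a at -0.28. Both calls were lost with the exonic share as a covariate, at 0.14 and -0.26.

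Conjugating enzymes gave 17 of 34 higher, 50% against 14.5% of all genes, and 9 lower, 26.5% against 26.1%. Mgst3, a microsomal glutathione transferase, rose (log2 fold change 1.08 ± 0.11, SE, adjusted p = 1.99e-05), and Gstp1, the transferase known for its male-biased level in mouse liver, fell (log2 fold change -1.74 ± 0.24, SE, adjusted p = 1.91e-04), with Gstp2 a close paralog whose reads may be shared. Of 31 antioxidant genes 6 rose, 19.4%, and 9 fell, 29%. Median-ratio scaling, which turned the balance of all genes too, gave 9 higher and 7 lower. Prdx6, a peroxiredoxin, rose by 0.36, and Srxn1, which repairs peroxiredoxins, fell (log2 fold change -0.88 ± 0.10, SE, adjusted p = 4.06e-05).

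Complement had 21 of 32 genes lower, 65.6% against 26.1% of all genes, 2 higher, and a median log2 fold change of -0.33. In the terminal pathway, which forms the membrane pore, 5 of 6 genes fell. C9, the pore subunit, measured 169, 221 and 145 FPKM in Con and 80.3, 88.7 and 43.2 FPKM in CR at day 25, and 169.9, 252 and 220.1 FPKM in Con and 46.7, 61.1 and 62.8 FPKM in CR at day 30. The highest CR library was below the lowest Con library on each day (log2 fold change -1.63 ± 0.19, SE, adjusted p = 5.71e-05). C3, the central component and the most abundant, went the other way at 1416, 1586 and 1815 FPKM in Con and 1879, 1830 and 2302 FPKM in CR at day 25, and 1474, 1482 and 1442 FPKM in Con and 2323, 1785 and 2447 FPKM in CR at day 30 (log2 fold change 0.44 ± 0.10, SE, adjusted p = 0.00681). All 3 C1q genes fell, and these also stand among the macrophage markers described last. In bulk liver, fewer cells of a type and less RNA per cell cannot be told apart. Acute-phase genes gave 12 of 35 higher, 34.3% against 14.5% of all genes, and 11 lower, 31.4%, with Orm2, an orosomucoid, rising (log2 fold change 1.89 ± 0.19, SE, adjusted p = 2.63e-05) and Saa1, a serum amyloid, falling (log2 fold change -1.93 ± 0.28, SE, adjusted p = 3.15e-04). Saa genes are among the families of near-identical copies left out of the main naming rule, so reads of Saa1 may be shared. Alb rose by 0.43 and, as the top transcript of every library, has a difference of 0 under quantile normalisation by construction. Coagulation genes gave 5 of 30 higher and 5 lower, 16.7% each, Kng2, a kininogen, at 0.43 and F3, tissue factor, at -0.50.

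Interferon-response genes had the most negative median, -0.49, with 26 of 40 lower, 65% against 26.1% of all genes, 1 higher and 18 lower without overlap on both days, 45% against 18% of all genes. No group was treated with interferon, so the levels are basal ones. B2m, the light chain of MHC class I, measured 1465, 1165 and 1299 FPKM in Con and 1090, 1150 and 1095 FPKM in CR at day 25, and 1444, 1617 and 1646 FPKM in Con and 1063, 1199 and 1151 FPKM in CR at day 30. All CR libraries lay below the Con libraries of their day, closely so at day 25 (log2 fold change -0.35 ± 0.08, SE, adjusted p = 0.00695). Oasl1, an antiviral protein of low abundance here, measured 3.88, 4.96 and 4.54 FPKM in Con and 1.76, 1.92 and 0.705 FPKM in CR at day 25, and 4.27, 3.97 and 4.91 FPKM in Con and 0.65, 1.68 and 0.99 FPKM in CR at day 30 and fell (log2 fold change -1.28 ± 0.14, SE, adjusted p = 4.93e-05). The member that rose was Psmb10, an inducible proteasome subunit (log2 fold change 0.37 ± 0.14, SE, adjusted p = 0.0613). Its call was lost without CR8, CR10, CR11, Con7, Con11 or Con12, with log2 fold changes of 0.27 to 0.36, and with the exonic share as a covariate, at 0.13.

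Promoters are shown for members of the interferon and respiratory lists, chosen after their values were seen; a motif of the glucocorticoid receptor was not searched. Interferon acts through the interferon-stimulated response element, searched as GAAANNGAA, and many respiratory genes are known targets of NRF1, searched as GCGCATGC, on both strands of RefSeq windows (GRCm38.p6) from 250 bases before to 50 after a start. Of 30 interferon-list genes with a window, 17 held the first motif, 56.7% against 8.39% of 8164 tested genes. Of 62 respiratory genes with a window, 9 held the second, 14.5% against 6.3%. Shares of the second motif were as high or nearly so in other lists, 18.2% of 11 proton pump genes, 15% of 20 NAD and sirtuin genes, 13.2% of 38 translation factors, 12.2% of 41 spliceosome genes and 11.9% of 67 mitochondrial ribosomal genes. Another, the ETS motif CCGGAAGT, was in 11 of 49 ribosomal genes, 22.4%, in 10 of 40 proteasome genes, 25%, and in 8 of 41 spliceosome genes, 19.5%, against 9.87%. Not every chromosome was eligible for the windows below, so a member of smaller p may not be shown. Among the eligible genes they belong to the called members of smallest p that hold the motif, chosen after their values were seen. The motif is in capitals.
Irgm1, chr11:48871371-48871670, minus strand: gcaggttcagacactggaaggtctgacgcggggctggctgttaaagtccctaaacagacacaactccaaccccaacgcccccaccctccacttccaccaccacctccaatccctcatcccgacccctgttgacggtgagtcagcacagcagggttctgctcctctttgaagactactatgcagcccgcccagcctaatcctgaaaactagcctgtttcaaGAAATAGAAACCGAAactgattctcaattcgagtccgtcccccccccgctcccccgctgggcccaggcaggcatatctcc
Irgm2, chr11:58214727-58215026, plus strand: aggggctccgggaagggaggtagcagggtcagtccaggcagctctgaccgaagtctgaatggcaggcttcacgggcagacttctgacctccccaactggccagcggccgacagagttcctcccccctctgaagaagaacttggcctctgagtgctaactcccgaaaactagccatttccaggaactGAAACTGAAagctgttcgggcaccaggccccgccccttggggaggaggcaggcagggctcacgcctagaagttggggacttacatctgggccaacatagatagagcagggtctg
Sdhb, chr4:140961021-140961320, plus strand: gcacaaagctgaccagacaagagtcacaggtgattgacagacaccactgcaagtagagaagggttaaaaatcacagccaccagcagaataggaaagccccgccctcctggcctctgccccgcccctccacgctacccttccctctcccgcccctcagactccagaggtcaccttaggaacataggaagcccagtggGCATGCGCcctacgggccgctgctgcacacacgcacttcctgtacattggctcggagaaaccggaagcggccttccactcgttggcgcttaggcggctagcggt
Uqcrc1, chr9:108936398-108936697, plus strand: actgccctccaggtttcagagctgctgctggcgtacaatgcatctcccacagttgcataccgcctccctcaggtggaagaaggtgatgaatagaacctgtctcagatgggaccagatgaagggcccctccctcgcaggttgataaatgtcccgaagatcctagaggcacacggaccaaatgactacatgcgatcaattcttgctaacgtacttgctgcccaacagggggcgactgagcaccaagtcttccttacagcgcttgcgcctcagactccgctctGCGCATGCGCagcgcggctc
Irgm1, a GTPase of cell-autonomous immunity, carries 2 overlapping matches and measured 15.3, 16.3 and 16.4 FPKM in Con and 10.6, 9.602 and 8.71 FPKM in CR at day 25, and 20.4, 15.4 and 19.7 FPKM in Con and 8.01, 11.3 and 8 FPKM in CR at day 30. It fell without overlap (log2 fold change -0.82 ± 0.10, SE, adjusted p = 9.14e-05), as did its relative Irgm2 (log2 fold change -1.28 ± 0.16, SE, adjusted p = 9.19e-05). Sdhb, the iron-sulfur subunit of complex II, measured 128, 174 and 135 FPKM in Con and 160.5, 201 and 183 FPKM in CR at day 25, and 144, 123 and 147 FPKM in Con and 225, 202 and 162 FPKM in CR at day 30. It rose with overlap at day 25 (log2 fold change 0.41 ± 0.11, SE, adjusted p = 0.0116). Uqcrc1, a core protein of complex III with 2 overlapping matches, rose by less (log2 fold change 0.29 ± 0.09, SE, adjusted p = 0.0247). A match of letters is a description of the window and not evidence of binding.

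Markers of non-hepatocyte cells moved beside these lists. Of 15 tested Kupffer cell and macrophage markers, 9 fell, 60% against 26.1% of all genes, and 1, Marco, rose. The median was -0.42, 1 marker was free of overlap on both days, 6.67% against 18% of all genes, and their summed level was 119 ± 26.0 FPKM in Con and 85.6 ± 18.8 FPKM in CR. Their sums were 103, 165 and 102 FPKM in Con and 66.1, 81.3 and 72.7 FPKM in CR at day 25. At day 30 they were 131, 119 and 94.8 FPKM in Con and 87.7, 120 and 85.4 FPKM in CR. The diets were apart at day 25 and overlapped at day 30. Cd5l, the most abundant, fell (log2 fold change -0.51 ± 0.17, SE, adjusted p = 0.0358), as did Ctss, a cathepsin of phagocytes (log2 fold change -0.48 ± 0.11, SE, adjusted p = 0.00537), and none of the markers was at 0 in all libraries. All 16 lymphocyte markers were under 1 FPKM in every library, and their sum was 3.39 ± 0.77 FPKM in Con and 1.95 ± 0.52 FPKM in CR. The diets were apart in this sum on both days, narrowly at day 30, with 2.885 FPKM in Con11 and 2.862 FPKM in CR11. The sum of 10 neutrophil markers was 1.10 ± 0.44 FPKM in Con and 0.45 ± 0.35 FPKM in CR. At day 25 it was 0.678, 1.30 and 1.16 FPKM in Con and 0.29, 0.395 and 0.139 FPKM in CR, and at day 30 the diets overlapped. S100a8, the most abundant, averaged 0.234 FPKM over the 12 libraries, and 1 of the 10 was at 0 in all of them. The part of macrophages, lymphocytes and neutrophils in the lower complement and interferon lists was not tested.

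Of 15 sinusoidal endothelial markers 9 were higher, 60% against 14.5% of all genes, 0 lower, and 2 free of overlap on both days, 13.3% against 18%, with a summed level of 91.5 ± 14.5 FPKM in Con and 122 ± 9.51 FPKM in CR. Ehd3 had the smallest p among the rises (log2 fold change 0.74 ± 0.12, SE, adjusted p = 5.92e-04), and Clec4g, the most abundant, rose too (log2 fold change 0.38 ± 0.11, SE, adjusted p = 0.0234). Stellate and matrix markers gave 6 of 16 higher, 37.5%, or 3 without Con12, and 1 lower, with Dcn, decorin, at 45.03 ± 3.43 FPKM in Con and 55.6 ± 5.11 FPKM in CR (log2 fold change 0.30 ± 0.08, SE, adjusted p = 0.011). Pericentral markers gave 5 of 15 higher, 33.3%, and 2 lower, 13.3%, and periportal markers 4 and 4 of 15, 26.7% each. Cyp2e1, the most abundant pericentral marker, averaged 4230 ± 539 FPKM in Con and 5656 ± 1094 FPKM in CR (log2 fold change 0.41 ± 0.10, SE, adjusted p = 0.00794). Of 7 erythroid markers 0 rose and 1 fell, Alas2, which starts heme synthesis in red cells, at 38.98 ± 5.79 FPKM in Con and 18.4 ± 6.21 FPKM in CR and without overlap on either day (log2 fold change -1.09 ± 0.18, SE, adjusted p = 8.23e-04). Hbb-bs, a globin and the most abundant of them, averaged 302 ± 201 FPKM in Con and 347 ± 160.3 FPKM in CR (log2 fold change 0.35 ± 0.38, SE, adjusted p = 0.5), with a wide spread within each diet. Of 4 tested cholangiocyte markers 0 rose and 1 fell.

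**Figure D5:**
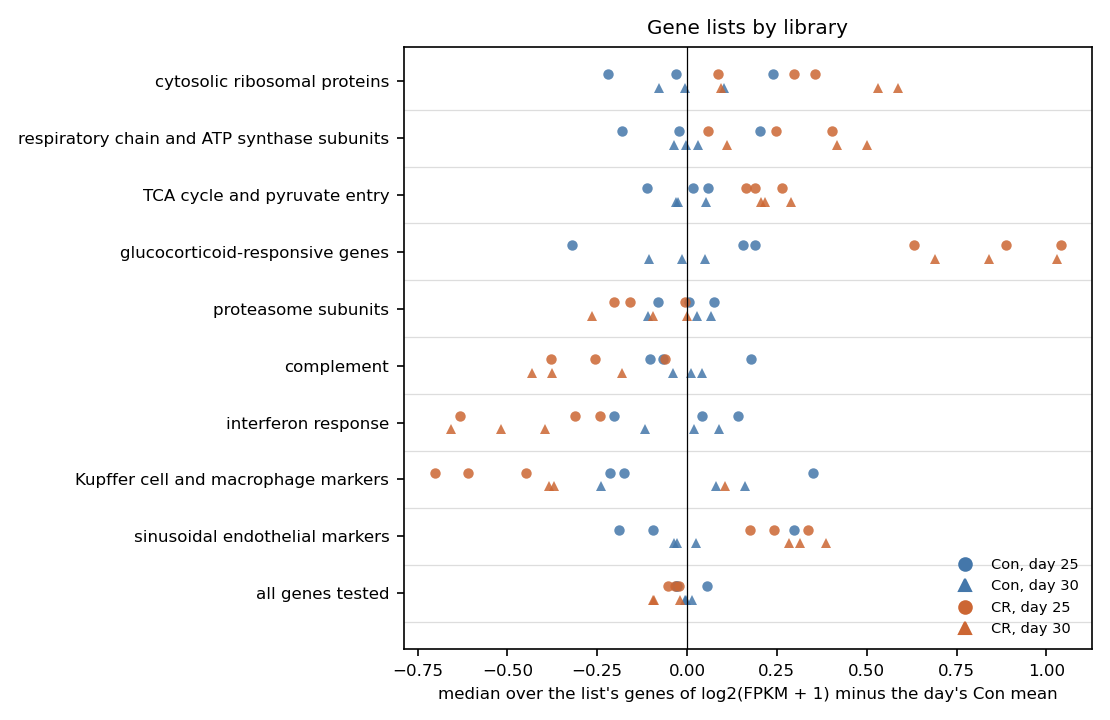
Median over each list's tested genes of log2(FPKM + 1) minus the mean of the 3 Con libraries of the same day, 1 point per library; circles are day 25, triangles day 30, blue Con and orange CR. Glucocorticoid-responsive genes, the citric acid cycle and interferon genes separate the diets on both days, the ribosomal list overlaps on both days and the respiratory list at day 25, and the median of all genes stays near 0.

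Of 24 cell cycle genes tested, 5 rose, 20.8% against 14.5% of all genes, and 7 fell, 29.2% against 26.1%. The balance turned, as for all genes, to 8 higher and 6 lower under median-ratio scaling. Under quantile normalisation it was 8 higher and 5 lower. Rrm2, a subunit of ribonucleotide reductase, rose (log2 fold change 0.69 ± 0.13, SE, adjusted p = 0.00173), and Cdk6, a kinase of the first growth phase, fell (log2 fold change -0.65 ± 0.08, SE, adjusted p = 1.18e-04), both at levels of a few FPKM.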

How the data were processed

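RNA of 12 mouse liver samples was sequenced by the authors in paired reads of 100 bases on a single lane. The labels and methods name CASAVA 1.8.2, FastQC and BWA and the mouse build mm10. The deposited table holds FPKM per RefSeq gene, computed by the authors with HOMER from reads on exons; the column headers carry that program's layout. FPKM is relative to each library's total, so a change in a few abundant genes shifts all others. Columns were assigned to samples by their names, and those of Con at day 30 to the group only.

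Where 3 or more libraries reached an FPKM of 1, the gene was tested with limma 3.58.1 in R 4.3.3 on log2(FPKM + 1), with diet and day as terms, a moderated variance with trend, and Benjamini-Hochberg adjustment over all 10593 genes. Fold changes on this scale understate those of low genes. The day interaction and the effect within each day came from the 4 groups. Called means an adjusted p below 0.1. The labels do not say whether samples of a group came from separate animals, so p-values measure the spread between these samples, which may be technical. Whole reads were recovered from the FPKM steps (100% of 1500 low values per library whole within 0.1 read) for an alternative fit. The pipeline was tested on simulated data.

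The named genes are protein-coding, with a mean FPKM of at least 10, called, and without overlap on both days: the 6 rises and 6 falls of smallest p among differences under 0.5 and among those from 0.5 to 1, and 3 and 3 of at least 1, leaving out predicted genes and families of near-identical copies. For each of 39 lists and 12 marker lists, the member of smallest p in each direction and the most abundant could be named. Some genes that the rule names are not reported here. The comparison and the lists were chosen with earlier results of these data known. Promoter sequences are those of RefSeq on GRCm38.p6. The alternatives were another pseudocount, 3 filters, 3 scalings, voom on the recovered reads, the moderation, the replicate block, no day term, other thresholds, and each library left out.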

Additional observations from a re-analysis of the deposited data

Results flagged for a closer look

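The diet effect differed between the days for 1 gene, Snord55, a small nucleolar RNA (difference of the log2 fold change at day 30 from that at day 25, -1.68, adjusted p = 0.0833, limma). Snord55 had 0 reads in each of the 3 Con libraries of day 25 and 2 reads in each of the 3 CR libraries. At day 30 the Con libraries had 1, 3 and 2 reads and the CR libraries 1 each, so the difference rests on a handful of reads on a transcript of 77 bases.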

How the results depend on the processing

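Of 123 genes named or open to naming, 106 had a value under every alternative and 17 were not tested with a minimum FPKM of 10. Where tested, 108 kept their direction and their side of the threshold, 15 changed sides in at least one alternative, and 0 reversed. With day adjusted, 4304 genes were called, 1536 higher, 2768 lower and 4128 under 2-fold. Requiring an FPKM of at least 10 in 3 libraries left 1771, 839, 932 and 1657, with fewer genes tested. A 2-fold minimum left 176 genes, 87 higher and 89 lower. Leaving out each library in turn gave 3698 to 4198 genes. The interaction of diet and day gave 1 gene, and 4 with a minimum FPKM of 0.1, 0 with 10, 2 with any value above 0, 3 with a pseudocount of 0.1, 3 with robust moderation, 0 with quantile normalisation, 0 with voom and 0 at an adjusted p under 0.05. It ranged from 0 to 5 with a library left out. With the share of reads on exons as a covariate, chosen after the data were seen, 4132 genes were called, 1267 higher and 2865 lower.

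The replicate block, by the number in the column names, called 4909 genes, 1781 higher and 3128 lower, and 8 for the interaction. The same-numbered libraries' deviations correlated at 0.11 to 0.37 at day 25 and 0.05 to 0.18 at day 30, and 5 of 6 numbers correlated best with their own, a hint of pairing from the data. The labels name no shared animal, litter or batch and 1 of 6 correlations was not over 0.1, so the block stayed an alternative. Under it 18 mitochondrial ribosomal genes were called higher and 7 lower. It also called 8 spliceosome, 10 translocation and 4 urea cycle genes higher, and 6 translocation genes and 2 cholangiocyte markers lower.

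Depth limits the low end: a library's 15748703 to 23345573 reads give genes near an FPKM of 1 few reads, and log2(FPKM + 1) shrinks their differences.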
